A study of Mus musculus with 12 samples.

Results

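The B cell transcripts described here are 7 genes chosen by name: Cd79a, Cd79b, Ms4a1, Ighm, Igkc, Pax5 and Jchain. They were read in a count table of 55487 genes, of which 15425 had enough counts to be tested, and all 7 were among those tested. The table holds 12 libraries of mRNA from CD11b-positive cells of the mouse cerebral cortex, 1 library per mouse and 3 mice per group. The surface protein CD11b is found on microglia and also on other myeloid cells, and anti-CD11b magnetic beads were used to take the cells from papain-digested cortex.

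The groups were WT mice given vehicle (PBS), WT mice given rh Bri2 BRICHOS R221E, App NL-G-F mice given vehicle, and App NL-G-F mice given rh Bri2 BRICHOS R221E. App NL-G-F mice carry a humanised and mutated amyloid-beta sequence knocked into their own App gene and form amyloid plaques, and the WT mice were their background strain, C57BL/6J. Rh Bri2 BRICHOS R221E is a recombinant human chaperone domain with an amino acid change, here called BRICHOS, given at 10 mg/kg. All mice were male, received 24 intravenous injections over 12 weeks from the age of 9 months, were left for 4 weeks without treatment and were perfused with saline. The bulk libraries do not tell fewer cells of a type from less RNA per cell.

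B cells recognise antigen through membrane immunoglobulin, whose heavy and light chains are coded by loci such as Ighm and Igkc, and pass the signal on through the Cd79a and Cd79b proteins. Ms4a1 codes for the surface protein CD20 and Pax5 for the transcription factor that maintains B cell identity. Plasma cells, which secrete antibody, switch off Pax5 and Ms4a1, transcribe immunoglobulin genes heavily and make Jchain, the joining chain of secreted IgM and IgA. The healthy brain cortex holds few B lineage cells, most of them at its borders. The heavy chain locus can also be transcribed before it is rearranged.

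Promoter sequences from RefSeq (GRCm38.p6) were used for 3 of the 7 members, Cd79a, Pax5 and Jchain, and those of Cd79b, Ms4a1, Ighm and Igkc were not analysed here. The windows of Cd79a and Jchain are shown because these genes mark different B lineage states, the antigen receptor and antibody secretion, and each was called in a strain comparison. Each window holds 300 bases, from 250 before to 50 after the annotated start, at chr7:24897247-24897546 on the plus strand for Cd79a and chr5:88527848-88528147 on the minus strand for Jchain. Capitals mark matches to an E-box (CAGGTG, or CACCTG where it lies on the other strand) and to an ETS core (AGGAAGTG), searched on both strands.
Cd79a: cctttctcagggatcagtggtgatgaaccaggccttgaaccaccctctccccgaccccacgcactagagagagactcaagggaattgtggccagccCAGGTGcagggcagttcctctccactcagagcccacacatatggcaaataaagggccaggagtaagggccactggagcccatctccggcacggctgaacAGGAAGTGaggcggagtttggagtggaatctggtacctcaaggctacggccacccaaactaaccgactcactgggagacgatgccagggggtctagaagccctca
Jchain: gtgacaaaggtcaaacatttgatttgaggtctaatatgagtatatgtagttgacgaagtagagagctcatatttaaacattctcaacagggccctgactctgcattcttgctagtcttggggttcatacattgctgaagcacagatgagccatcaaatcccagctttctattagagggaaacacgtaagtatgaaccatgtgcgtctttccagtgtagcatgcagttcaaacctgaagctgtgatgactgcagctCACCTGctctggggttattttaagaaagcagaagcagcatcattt
The Cd79a window held the E-box 154 bases and the ETS core 55 bases before the start, without overlap. This start is that of the promoter annotation. The Cd79a gene span given below begins earlier, at 24897381, so the ETS core lies inside that span. The Jchain window held the E-box on the other strand, 5 bases after the start, and no ETS core. The Pax5 window held neither, and none of the 3 windows held the octamer ATTTGCAT. Of 32851 promoter windows of this length, 20.2% held the E-box, 4.07% the ETS core and 1.74% the octamer. These matches describe letters only.

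The members did not form a common level. Per kilobase of exon, Ighm averaged 211 CPM (read counts scaled by the library's total and its edgeR normalization factor) over the 12 libraries, Igkc 6.89, Cd79b 5.39, Cd79a 0.287, Jchain 0.238, Ms4a1 0.0550 and Pax5 0.0339. Ighm was thus 30.6 times Igkc and 39.1 times Cd79b per length, and Cd79b was 18.8 times Cd79a, its partner in the receptor. The order of Igkc and Cd79b was not fixed, since Igkc ranged from 1.29 to 26.4 CPM per kilobase and Cd79b from 2.94 to 8.27. The ranges of Cd79a (0.0885 to 0.695) and Jchain (0.0272 to 0.492) overlapped as well, as did those of Ms4a1 (0 to 0.155) and Pax5 (0 to 0.121).

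**Figure D1:**
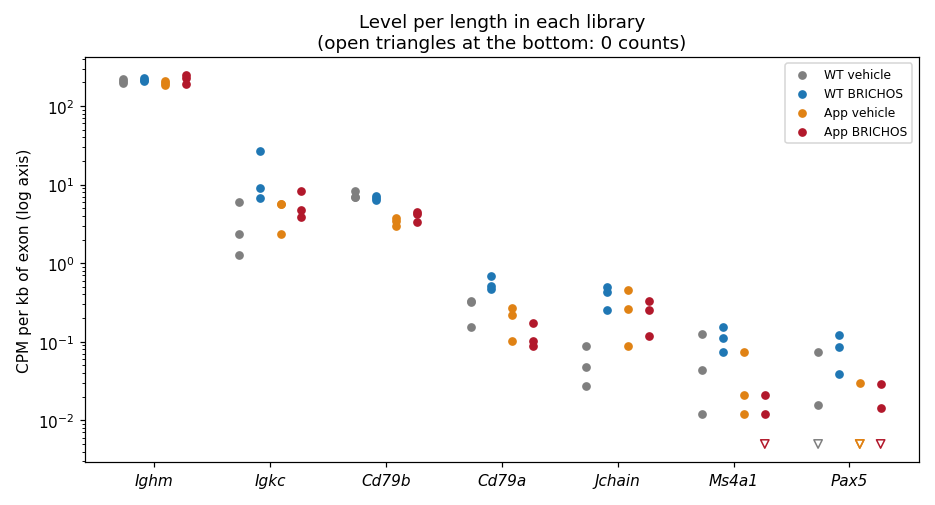
Level of each member in CPM per kilobase of exon on a log axis, 1 point per library and 1 colour per group, with libraries at 0 counts drawn as open triangles at the bottom. Ighm lies at 183 to 245 in every library, while Ms4a1 and Pax5 stay at or below 0.155.

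The label of the set as B cell transcripts was checked against further B lineage genes. Total counts per library ran from 12433402 to 17889654, so that 3 counts, the upper limit allowed by a count of 0, correspond to 0.169 to 0.226 CPM. Cd79a, Ms4a1 and Pax5, the members that best define B cells, had 2 to 18, 0 to 17 and 0 to 19 counts per library. Of 13 other B cell surface genes, 9 averaged under 1 CPM, among them Cr2, Fcer2a, Fcrla and Vpreb1. These genes were at or near the counting floor in many libraries. Ighm, Cd79b and Igkc, at 4674 to 7547, 63 to 168 and 10 to 250 counts, stood above it in every library. The set thus joins genes of unlike levels, and which cells gave the Ighm, Cd79b and Igkc reads was not tested. The 9 microglial markers summed to 25380 to 29400 CPM in the WT libraries and 23330 to 25870 in the App NL-G-F libraries. Of these 9, 7 were lower in App NL-G-F mice under vehicle and 6 under BRICHOS, with 1 higher in each and median log2 fold changes of -0.44 and -0.24. Of all tested genes, 37.0% were called under vehicle (16.9% lower) and 42.5% under BRICHOS (21.8% lower). The part of the microglial markers in the strain differences of Cd79b and other B lineage genes was not tested.

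Ighm, which codes for the constant region of the IgM heavy chain (chromosome 12, 113418558 to 113422730, minus strand), was the most abundant member. Its normalised level was 369, 395 and 413 CPM in the WT vehicle libraries and 390, 425 and 404 CPM in the WT BRICHOS libraries. It was 399, 375 and 346 CPM in the App vehicle libraries and 431, 463 and 361 CPM in the App BRICHOS libraries. All groups overlapped, and the highest library was 1.34 times the lowest. The log2 fold change of App NL-G-F against WT was -0.07 ± 0.0875 (SE) under vehicle (95% interval -0.26 to 0.12, adjusted p = 0.540, edgeR) and 0.04 ± 0.0874 under BRICHOS (-0.15 to 0.23, adjusted p = 0.727). When libraries were scaled by total counts alone, the values were -0.26 and -0.23, the second with the opposite sign, and both passed the test (adjusted p = 0.0242 and 0.0362). That scaling also moved the median of all tested genes to -0.21 and -0.31.

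Ighd, the IgD constant region gene next to Ighm, was lower in App NL-G-F mice. It averaged 15.3 CPM in the WT vehicle group and 8.20 CPM in the App vehicle group, a log2 fold change of -0.90 ± 0.143 (adjusted p = 0.000495). Under BRICHOS the averages were 15.8 and 10.5 CPM, with a log2 fold change of -0.59 ± 0.140 (adjusted p = 0.00552). The number of Ighm counts per Ighd count was 23.0 to 28.3 in the 6 WT libraries and 37.8 to 50.8 in the 6 App NL-G-F libraries, without overlap.

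Each of the 4 annotated joining segments upstream of Ighm had counts in all 12 libraries, which no variable segment had. The 4 heavy chain joining segments together had 76 to 222 counts per library, or 1.59 to 3.07 per 100 Ighm counts. Heavy chain variable segments, of which a rearranged heavy chain transcript carries 1, had 1 to 94 counts, or 0.0185 to 1.25 per 100 Ighm counts. Kappa variable segments had 34.4 to 113 counts per 100 Igkc counts. Counted as reads and not per length, heavy variable segments were thus scarce beside Ighm, and kappa variable segments were of the order of Igkc. The joining segments were examined after their values were seen. Ighj2 was lower in App NL-G-F than in WT under BRICHOS (log2 fold change -1.14 ± 0.345, adjusted p = 0.0199), as was Ighj4 (-0.93 ± 0.337, adjusted p = 0.0446), while Ighj1 (-0.08 ± 0.259, adjusted p = 0.825) and Ighj3 (-0.92 ± 0.378, adjusted p = 0.0697) did not pass. Under vehicle none of the 4 passed (-0.65 to -0.12, adjusted p = 0.165 to 0.813). In the average of both treatments Ighj2, Ighj3 and Ighj4 passed (adjusted p = 0.0468, 0.0283 and 0.0166). Of all tested genes, 37.0% passed under vehicle, 42.5% under BRICHOS and 53.9% in the average.

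Cd79b, the Ig-beta chain of the B cell receptor complex (chromosome 11, 106311341 to 106314762, minus strand), separated the strains. It stood at 9.99, 9.95 and 11.8 CPM in the WT vehicle libraries and at 10.3, 9.11 and 9.61 CPM in the WT BRICHOS libraries. It stood at 4.20, 4.98 and 5.40 CPM in the App vehicle libraries and at 6.06, 6.39 and 4.75 CPM in the App BRICHOS libraries. Every WT library was above every App NL-G-F library. The log2 fold change of App NL-G-F against WT was -1.12 ± 0.149 under vehicle (adjusted p = 0.000124) and -0.75 ± 0.146 under BRICHOS (adjusted p = 0.00171). These correspond to 2.18-fold and 1.68-fold lower levels. Leaving out any single library left the vehicle value between -1.20 and -1.02 and the BRICHOS value between -0.83 and -0.63, and all of these passed the test.

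Cd79a, the Ig-alpha chain (chromosome 7, 24897381 to 24902197, plus strand), had few reads. The WT vehicle libraries held 7, 8 and 3 counts (0.479, 0.474 and 0.223 CPM) and the WT BRICHOS libraries 11, 18 and 13 counts (0.692, 1.01 and 0.743 CPM). The App vehicle libraries held 5, 6 and 2 counts (0.323, 0.393 and 0.148 CPM) and the App BRICHOS libraries 2, 4 and 2 counts (0.129, 0.256 and 0.151 CPM). The WT BRICHOS libraries were above all others. Only these 3 libraries had 10 or more counts, so the gene entered the test through the group in which it was high. Under BRICHOS, Cd79a was lower in App NL-G-F mice by a log2 fold change of -2.14 ± 0.462 (adjusted p = 0.00319), and under vehicle the value was -0.43 ± 0.472 (adjusted p = 0.512). The Cd79b to Cd79a count ratio ranged from 9.00 to 53.0, with its lowest value in WT BRICHOS library 2.

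Ms4a1 (chromosome 19, 11249675 to 11266241, minus strand) and Pax5 (chromosome 4, 44524757 to 44710487, minus strand) each reached 10 counts in 3 libraries, WT vehicle 2 and WT BRICHOS 1 and 2. Ms4a1 had 4, 13 and 1 counts in WT vehicle, 11, 17 and 8 in WT BRICHOS, 7, 2 and 1 in App vehicle and 2, 0 and 1 in App BRICHOS. Pax5 had 2, 11 and 0 counts in WT vehicle, 12, 19 and 6 in WT BRICHOS, 0, 4 and 0 in App vehicle and 4, 2 and 0 in App BRICHOS. WT vehicle 2 held most of the vehicle counts of both genes in WT mice, and the WT BRICHOS and App BRICHOS groups did not overlap for either. Both genes thus entered the test through WT libraries, and in a fit of the BRICHOS groups alone neither had enough counts to be tested. Under BRICHOS, Ms4a1 was lower in App NL-G-F mice by a log2 fold change of -3.23 ± 0.934 (adjusted p = 0.0159). This call was lost when WT BRICHOS library 2 or App BRICHOS library 2 was left out, with values of -2.93 and -2.66 (adjusted p = 0.0521 and 0.0568). The value of Pax5 was -2.36 ± 1.05 (adjusted p = 0.0926), which did not pass. Under vehicle neither gene passed (adjusted p = 0.486 and 0.374).

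Igkc, the kappa light chain constant region gene (chromosome 6, 70726435 to 70726966, plus strand), had 1 library far above the others. It had 10, 54 and 17 counts in WT vehicle, 57, 250 and 85 in WT BRICHOS, 46, 46 and 17 in App vehicle and 69, 32 and 34 in App BRICHOS. WT BRICHOS library 2 reached 14.1 CPM, and the next highest library, WT BRICHOS 3, 4.86 CPM. The App NL-G-F against WT log2 fold change was 0.47 ± 0.654 under vehicle (adjusted p = 0.597) and -1.31 ± 0.592 under BRICHOS (adjusted p = 0.0961). Without WT BRICHOS library 2 the latter was -0.48, and without WT BRICHOS library 1 it was -1.64 and passed (adjusted p = 0.0479). It also passed when libraries were scaled by total counts alone (-1.57, adjusted p = 0.0414). The spread of Igkc within groups was 25.7 times that of counting error alone, as a chi-square per degree of freedom, against 0.633 for Cd79a, 1.27 for Cd79b, 2.16 for Jchain, 2.56 for Ms4a1 and 3.79 for Pax5. Ighm, with far more counts and so a smaller counting error relative to its level, reached 36.7.

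Jchain (chromosome 5, 88519809 to 88527891, minus strand) was lowest in the WT vehicle group. It had 1, 2 and 3 counts there (0.0684, 0.118 and 0.223 CPM) and 10, 22 and 19 in WT BRICHOS (0.629, 1.24 and 1.09 CPM). It had 18, 10 and 3 counts in App vehicle (1.16, 0.656 and 0.222 CPM) and 13, 10 and 4 in App BRICHOS (0.838, 0.639 and 0.302 CPM). WT vehicle library 3 and App vehicle library 3, with 3 counts each, made the vehicle groups meet. Under vehicle, Jchain was higher in App NL-G-F mice by a log2 fold change of 2.30 ± 0.704 (adjusted p = 0.0239). The call was lost without WT vehicle 1, WT vehicle 2 or App vehicle 1, with values of 1.68 to 2.76 over the libraries left out in turn and a highest adjusted p of 0.116. In a fit of the vehicle groups alone Jchain had too few counts to be tested. Under BRICHOS the value was -0.71 ± 0.528 (adjusted p = 0.303).

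**Figure D2:**
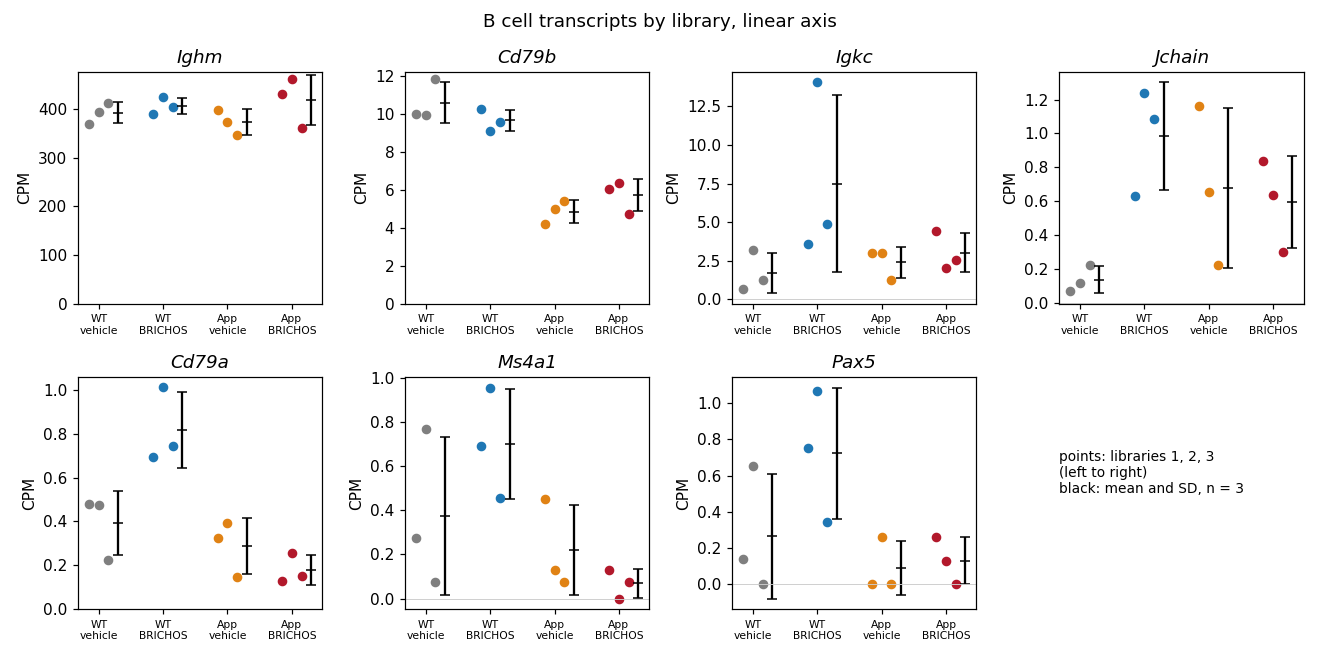
Normalised level of each member in CPM on linear axes, 1 point per library in the order 1 to 3 within each group, with the group mean and SD (n = 3) in black. Every WT library lies above every App NL-G-F library for Cd79b, and WT BRICHOS library 2 stands apart for Igkc at 14.1 CPM.

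The strain comparison under vehicle asked how cells of plaque-bearing mice differed from those of WT mice without treatment. Of the 7 members, 1 was called lower (Cd79b) and 1 higher (Jchain) at an adjusted p under 0.05. Of all tested genes 37.0% were called, 16.9% lower and 20.1% higher, so 2 of 7 is near the background. The members' median log2 fold change was -0.43 and that of all tested genes -0.02. Only Cd79b had groups that did not overlap, as did 50.9% of all tested genes.

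The strain comparison under BRICHOS called 3 members, all lower in App NL-G-F mice: Cd79a, Cd79b and Ms4a1. Of these, Cd79a and Ms4a1 entered the test only through WT libraries. Without a filter on low counts the same 3 were called, and with at least 10 counts in every library Cd79b alone. The background was 42.5% of tested genes, 21.8% lower and 20.8% higher, so 3 of 7 called is near the background. The groups did not overlap for 4 members, these and Pax5, against 51.7% of tested genes. The median log2 fold change was -1.31 over the members and -0.04 over all tested genes. Averaged over both treatments, the same 3 members were called lower in App NL-G-F mice, where 53.9% of tested genes were called, a share that 3 of 7 does not exceed. Their log2 fold changes were -1.28 ± 0.333 for Cd79a, -0.93 ± 0.104 for Cd79b and -2.00 ± 0.635 for Ms4a1 (adjusted p = 0.00694, 1.63e-05 and 0.0196). Ms4a1 lost this call without WT vehicle library 2 (highest adjusted p = 0.0963). The strain comparisons share no library between vehicle and BRICHOS, but the average uses both.

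The treatment comparison in WT mice asked what BRICHOS did where no plaques form. No member was called by edgeR, and none of the 15425 genes was (0% of tested genes). DESeq2 gave an adjusted p to 4 of the 7 members and called 0, whereas it called 80 genes in all (0.529% of those given an adjusted p). At an unadjusted p under 0.05, 3 members were higher after BRICHOS, against 11.4% of tested genes in either direction. These were Jchain with a log2 fold change of 2.81 ± 0.669 (adjusted p = 0.239, edgeR), Igkc with 2.10 ± 0.622 (adjusted p = 0.264) and Cd79a with 1.03 ± 0.405 (adjusted p = 0.387). Cd79a was tested only because of its WT BRICHOS counts. For all 3, each WT BRICHOS library exceeded each WT vehicle library, as groups did not overlap for 17.5% of tested genes. Cd79b (-0.13 ± 0.142) and Ighm (0.05 ± 0.0874) had values near 0.

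The treatment comparison in App NL-G-F mice called no member with edgeR, adjusted or at an unadjusted p under 0.05. The backgrounds were 0.00648% (1 gene) and 10.8% of tested genes. DESeq2 gave an adjusted p to 3 members and called 0, and called 119 genes in all (0.913%). Jchain had a log2 fold change of -0.20 ± 0.555 and Igkc of 0.31 ± 0.627. The intervals were wide for the low members, from -1.42 to 1.02 for Jchain, and narrow for Ighm (-0.03 to 0.36) and Cd79b (-0.09 to 0.57).

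The difference of the BRICHOS effects between the strains was tested as an interaction. No member was called by edgeR, where 0.00648% of tested genes were, and DESeq2 gave an adjusted p to 3 members and called 0, and called 244 genes in all (1.71%). At an unadjusted p under 0.05, Jchain and Cd79a passed, against 14.8% of tested genes. Cd79a again entered the test only through the WT BRICHOS group. Their differences, App NL-G-F minus WT, were -3.01 ± 0.883 (adjusted p = 0.195, edgeR) and -1.70 ± 0.677 (adjusted p = 0.278). A difference between the strains in the response of any member was not shown after adjustment.

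**Figure D3:**
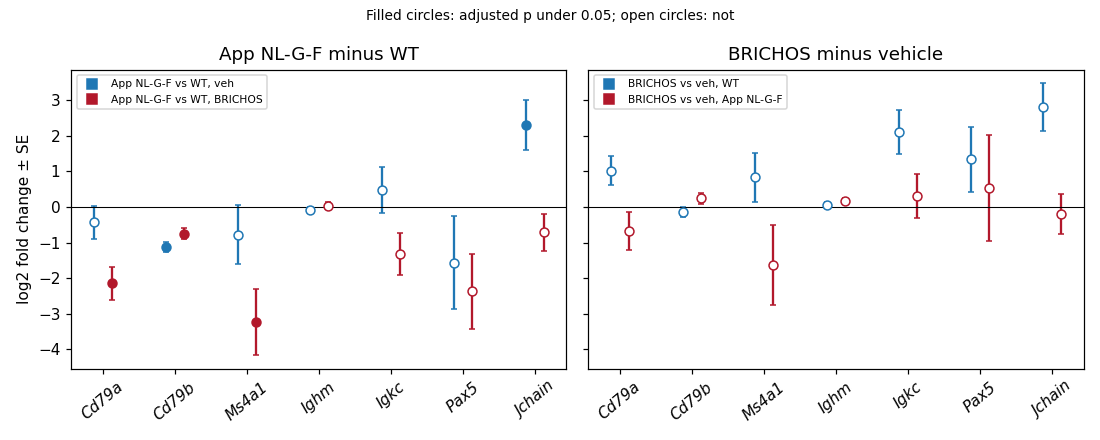
Log2 fold change of each member with its SE, for App NL-G-F minus WT under each treatment on the left and BRICHOS minus vehicle in each strain on the right. Filled circles have an adjusted p under 0.05, which only strain comparisons reached: Cd79b in both, Jchain under vehicle, and Cd79a and Ms4a1 under BRICHOS.

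The members varied together only in part. Across the 12 libraries, Pearson's r of log2 CPM was 0.82 for Cd79a and Ms4a1, 0.77 for Cd79a and Pax5, 0.72 for Ms4a1 and Pax5 and 0.76 for Igkc and Jchain. After the group means were subtracted these were 0.46, 0.59, 0.55 and 0.57. Ighm had an r of 0.15 with Cd79a, 0.01 with Ms4a1 and 0.31 with Pax5, but 0.41 with Igkc and 0.50 with Jchain. After subtraction of the group means, Ighm and Jchain had the highest r of the member pairs, 0.83. Cd79b had an r of -0.40 with Cd79a and -0.66 with Ms4a1 after the same subtraction. The 2 genes of a pair share each library and its depth, and low counts limit these values. The summed counts of Cd79a, Ms4a1 and Pax5 were 13, 32 and 4 in WT vehicle, 34, 54 and 27 in WT BRICHOS, 12, 12 and 3 in App vehicle and 8, 6 and 3 in App BRICHOS. WT BRICHOS library 2 held the highest sum, and WT vehicle library 2, at 32, lay among the WT BRICHOS libraries.

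**Figure D4:**
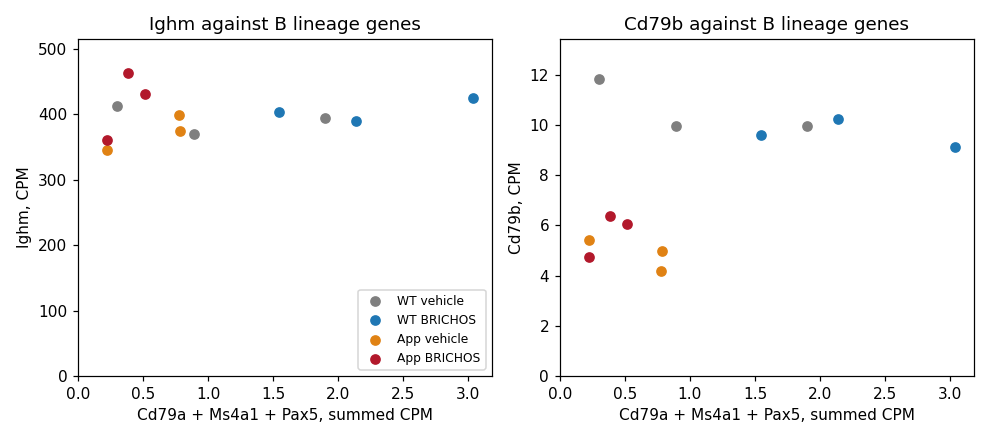
Ighm and Cd79b in CPM (vertical axes) against the summed CPM of Cd79a, Ms4a1 and Pax5 (horizontal axes), 1 point per library. The sum ranges from 0.222 to 3.04 CPM while Ighm stays between 346 and 463, and every WT library lies above every App NL-G-F library in Cd79b, although App NL-G-F sums reach only 0.787.

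The genes whose log2 CPM was most like the mean of the members, over 12 libraries, began with Gm3055 (r = 0.88, 0.82 after subtraction of group means). The other 9 of the 10 nearest were Mrnip, Col6a2, B3gntl1, 1700010I14Rik, Ms4a14, Dnah3, Fas, mt-Cytb and Itgb7, with r from 0.83 to 0.87 (0.52 to 0.80 after subtraction). Of these 10, 4 were also among the 10 nearest by Spearman's rho: Mrnip, B3gntl1, 1700010I14Rik and Fas. Col6a2 codes for a collagen VI chain and Ms4a14 belongs to the family of Ms4a1.

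The immunoglobulin constant genes were compared by their read counts. Whether the Ighm reads came from rearranged transcripts was not tested, so these shares describe reads and not the isotypes made. Ighm made up 88.8% of all constant region counts in WT BRICHOS library 2 and 94.3% to 96.8% in the other 11 libraries. Ighg2c, the constant gene of the IgG2c isotype, had 287 counts in that library and 0 to 5 in every other. That is 96.6% of all Ighg2c counts in the series, and 76.3% of the class-switched heavy chain counts of that library (Wilson 95% interval 71.8 to 80.4, counting error only). Ighg2b followed, with 62 counts there and 4 to 24 elsewhere. Igha, of the IgA isotype, had another pattern: 0, 35 and 12 counts in WT vehicle, 72, 16 and 71 in WT BRICHOS, 52, 69 and 23 in App vehicle and 42, 25 and 8 in App BRICHOS. Igha was thus lowest in WT vehicle 1, which also had the lowest Igkc and Jchain counts. Ighg1 had 16 counts in all, Ighg3 5 and Ighe 0, and Iglc1, Iglc2 and Iglc3 had 18, 42 and 10. Light chain reads were kappa for 66.7% to 98.8% of counts per library.

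Variable segments gave a second view of the same libraries. Of 216 annotated variable segments 109 had a count, 50 of them in a single library, and none had enough to be tested. Segment totals were 7, 76 and 20 in WT vehicle, 70, 264 and 87 in WT BRICHOS, 66, 39 and 27 in App vehicle and 59, 23 and 21 in App BRICHOS. Of the 23 segments with 10 or more counts, 18 had over 50% of them in 1 library. In WT BRICHOS library 2, Igkv16-104 and Igkv6-17 had 37 counts each and Ighv1-50 had 28, and the leading segment held 14.0% of the variable counts (Wilson 95% interval 10.3 to 18.7). In WT vehicle library 2, Ighv1-9 and Igkv19-93 had 23 counts each, 30.3% (21.1 to 41.3) of its total for the first. In App vehicle library 1, Igkv1-122 had 17 counts and none elsewhere, 25.8% (16.7 to 37.4) of its total. Related segments are near-identical in places, so the assignment of reads among them is uncertain.

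**Figure D5:**
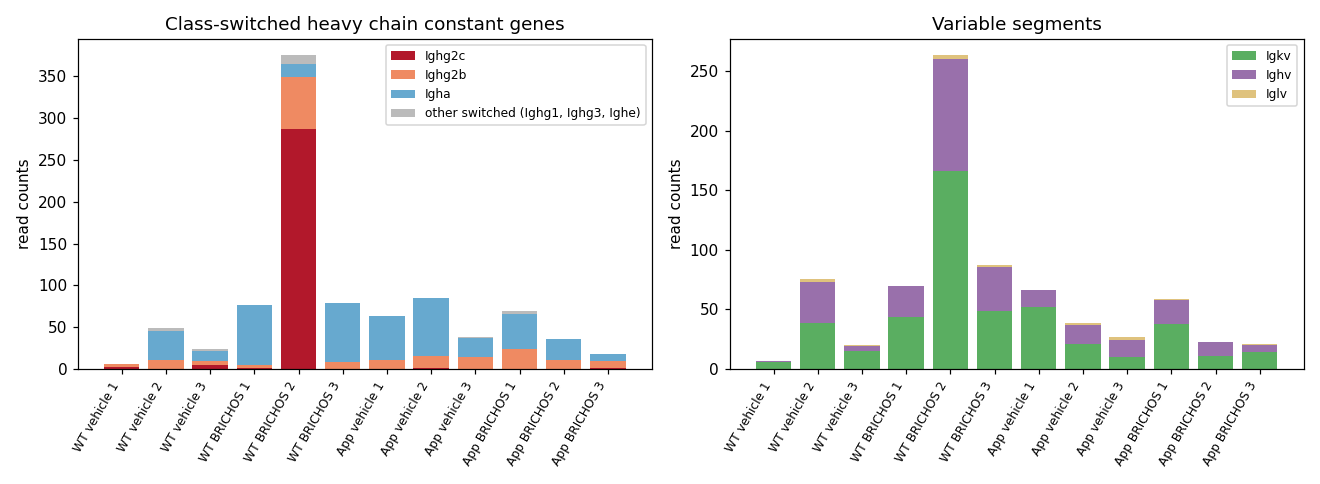
Read counts of class-switched heavy chain constant genes (left) and of immunoglobulin variable segments (right) in each library, stacked by gene or chain. WT BRICHOS library 2 holds 376 class-switched and 264 variable counts, the highest of the 12 libraries in both.

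Further genes listed for the B lineage also had unlike levels. Of 41 genes in the lists of surface genes, transcription factors, receptor signalling genes and plasma cell genes, 16 averaged under 1 CPM and 22 over 5 CPM. Of the 4 surface genes tested, 3 were lower and 1 higher in App NL-G-F mice under vehicle and likewise under BRICHOS. The median log2 fold changes were -0.81 and -0.66. These and the following counts stand beside backgrounds of 37.0% of all tested genes called under vehicle (16.9% lower) and 42.5% under BRICHOS (21.8% lower). Siglecg, an inhibitory sialic acid receptor, was lower under vehicle (-2.07 ± 0.210, adjusted p = 1.57e-05), and so was Fcrl1 (-1.10 ± 0.147, adjusted p = 0.000129), an Fc receptor-like protein. Tnfrsf13b, a receptor for BAFF and APRIL, was lower (-0.51 ± 0.104, adjusted p = 0.00249), and Cd22, an inhibitory co-receptor, was higher (1.26 ± 0.0924, adjusted p = 1.16e-06). In WT vehicle, Cd22, Fcrl1, Tnfrsf13b and Siglecg averaged 36.7, 37.3, 81.85 and 4.66 CPM. Cd79a, Ms4a1 and Pax5 averaged 0.392, 0.373 and 0.263 CPM there. Which cells gave the reads of these surface genes was not tested.

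Of the 5 transcription factors tested, 3 were lower in App NL-G-F mice in each comparison and none was higher: Ebf1, which opens the B cell program, Pou2f2 and Bach2. Their log2 fold changes were -0.83 ± 0.247, -0.51 ± 0.0696 and -0.50 ± 0.0847 under vehicle (adjusted p = 0.0209, 0.000164 and 0.000790). Of 12 receptor signalling genes tested, 8 were lower and 2 higher under vehicle, and 4 lower and 4 higher under BRICHOS. Bank1, an adaptor of B cell receptor signalling, changed most, from 55.4 CPM in WT vehicle to 7.93 CPM in App vehicle (-2.81 ± 0.0994, adjusted p = 4.30e-09). Dapp1, another adaptor, was lower (-1.06 ± 0.0900, adjusted p = 3.85e-06), as was the kinase Syk (-0.49 ± 0.0457, adjusted p = 7.43e-06), whereas Cd72, an inhibitory co-receptor, was higher (1.76 ± 0.142, adjusted p = 2.49e-06). Many of these genes, Lyn, Syk, Btk and Plcg2 among them, are also used by myeloid cells. Which cells gave the reads of the transcription factors and signalling genes was not tested.

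Of the 7 plasma cell genes tested, 1 was lower under vehicle (Irf4, -1.64 ± 0.310, adjusted p = 0.00161). Under BRICHOS 1 was lower (Irf4, -1.15 ± 0.297, adjusted p = 0.00889) and 2 were higher (Prdm1, 0.71 ± 0.214, adjusted p = 0.0195, and Derl3, 0.77 ± 0.269, adjusted p = 0.0382). Mzb1, which chaperones immunoglobulin in plasma cells and marginal zone B cells, had 2 counts in the whole series. Scaled by total counts alone, 3 plasma cell genes were lower and none higher in each comparison, and the receptor signalling genes under BRICHOS were 8 lower and 2 higher. Irf4, Prdm1 and Xbp1 are also transcribed outside the plasma cell lineage.

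Of the markers of other cells, some lists had their highest sums in WT BRICHOS and others did not. Cd79a, Ms4a1, Pax5 and Jchain also had their highest averages in WT BRICHOS. The order of the other groups differed, as Jchain was lowest in WT vehicle. The 7 border macrophage markers summed to 405 to 477 CPM in WT vehicle and 534 to 655 in WT BRICHOS. They summed to 176 to 242 in App vehicle and 178 to 238 in App BRICHOS, and 6 of 7 were lower in App NL-G-F mice in each strain comparison. Called markers, here and in the paragraphs that follow, stand beside 37.0% of all tested genes under vehicle (16.9% lower, 20.1% higher). Under BRICHOS the share was 42.5% (21.8% lower, 20.8% higher). The 6 meningeal fibroblast markers summed to 22.5 to 33.2 CPM in WT BRICHOS and 3.71 to 17.1 in the other groups. The 5 choroid plexus markers summed to 3256 to 6771 CPM in WT BRICHOS, 860 to 3932 in WT vehicle and 640 to 1969 in the App NL-G-F libraries. The 5 dendritic cell markers summed to 64.4 to 72.0 CPM in WT BRICHOS, 47.5 to 57.6 in WT vehicle and 19.7 to 26.0 in App NL-G-F libraries, with Xcr1 and Clec9a under 1 CPM. The 11 neutrophil markers had another pattern, at 39.6 CPM in WT vehicle 3 and 74.1 in WT BRICHOS 1 against 270 to 448 in the other 4 WT libraries and 14.1 to 39.5 in App NL-G-F libraries. The 6 monocyte markers summed to 41.0 to 104 CPM in WT BRICHOS, 22.2 to 55.3 in WT vehicle and 11.7 to 27.9 in App NL-G-F libraries. The 8 NK cell markers summed to 2.83 to 5.95 CPM in WT vehicle, 7.03 to 11.6 in WT BRICHOS and 4.53 to 9.46 in App NL-G-F libraries. Klrb1c, which averaged 0.527 CPM in WT vehicle and 4.28 CPM in App vehicle, made up much of the latter sum. Of the 6 NK cell markers tested, 1 was lower and 1 higher in App NL-G-F mice under vehicle, and 5 were lower and 1 higher under BRICHOS. Among those lower under BRICHOS, Nkg7 and Prf1 reached 10 counts only in the WT BRICHOS libraries. These genes thus entered the test through the group in which they were high. The 7 erythroid markers summed to 62.0 to 278 CPM in the WT libraries and 38.9 to 110 in App NL-G-F libraries, and of 5 tested edgeR called none under vehicle, adjusted or at an unadjusted p under 0.05, and 4 were lower in App NL-G-F mice under BRICHOS.

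Endothelial markers summed to 578 to 648 CPM in WT vehicle, 491 to 700 in WT BRICHOS and 358 to 571 in App NL-G-F libraries. Of 6, 5 were lower in App NL-G-F mice in each strain comparison (median log2 fold changes -0.78 and -1.42), and none passed an unadjusted p under 0.05 in WT mice after BRICHOS. In App NL-G-F mice, 5 of 6 were lower after BRICHOS at an unadjusted p under 0.05 (median log2 fold change -0.64), against 10.8% of tested genes in either direction. After adjustment 0 of these were called.

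The sums of astrocyte and T cell markers had their highest values in App NL-G-F libraries, and the astrocyte sums of App BRICHOS overlapped those of WT. Astrocyte markers summed to 414 to 751 CPM in the WT libraries, 1375 to 4419 in App vehicle and 640 to 1849 in App BRICHOS, and of 6, 6 were higher in App NL-G-F mice under vehicle and 1 under BRICHOS. Of 13 T cell markers 10 averaged under 1 CPM, Cd3e, Cd3d and Cd3g among them, with 9 at 0 in some library. Their sum was nevertheless 7.94 to 13.6 CPM in the WT libraries and 23.5 to 50.6 in the App NL-G-F libraries. Of the 4 tested, Cd5 and Cd28 were higher in App NL-G-F mice in each strain comparison, while Cd4 was lower under BRICHOS. Cd5 averaged 0.958 CPM in WT vehicle and 14.8 CPM in App vehicle. The part of these cells in the results for Cd79a, Ms4a1, Pax5, Igkc and Jchain was not tested.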

How the data were processed

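The deposited table holds raw read counts per gene, which the authors made from trimmed reads aligned to GRCm38 with STAR and counted with featureCounts 1.5.1; the strand setting is not given in the sources used here. A read shared by near-identical segments, or by genes overlapping on either strand, could thus be lost or misassigned (Ms4a1, Igkc and Pax5 overlap other annotated genes, with 0 to 2 counts each). Gene names and positions came from GENCODE annotation of GRCm38 (55141 of 55487 identifiers matched). Counts were tested with edgeR 4.0.16 (quasi-likelihood, TMM scaling, 4 group means, filterByExpr with a minimum count of 10) in R 4.3.3, with Benjamini-Hochberg adjustment over 15425 genes. A gene is called at an adjusted p under 0.05, and SE and 95% intervals are those of this fit. DESeq2 1.42.0 was an alternative. On simulated counts for the vehicle strain comparison, 164 of 200 genes changed 2-fold and 194 of 200 changed 4-fold were recovered. There were 10 and 11 false calls among 15425 genes. The changed genes were drawn only from those averaging over 2 CPM. Cd79a, Ms4a1, Pax5 and Jchain averaged 0.419, 0.341, 0.300 and 0.599 CPM, and recovery at such levels was not tested.

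The members and gene lists were chosen with earlier results of these data known. Named genes were all members, the immunoglobulin constant genes, up to 4 list genes with the largest change among those called in a comparison, and the 10 genes most correlated with the members. A few genes are not reported here. Correlations used log2 CPM with a prior count of 2. Samples have no batch label, and intervals on shares and the limit of 3 counts cover counting error only.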

Additional observations from a re-analysis of the deposited data

How the results depend on the processing

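Counts of called members stayed within 1.5 times under DESeq2 size factors, the DESeq2 Wald test and no filter on low counts. With at least 10 counts in every library, 1 member (Cd79b) was called in each strain comparison and in their average, because the low members were not tested. A fit restricted to the groups compared tested 3 members under vehicle (Cd79b, Ighm and Igkc) and called 1; it tested 5 under BRICHOS, without Ms4a1 and Pax5, and called 2. With library size alone, 5 were called under BRICHOS and 5 in the average. Ighm then had -0.23 under BRICHOS in place of 0.04. Over libraries left out in turn, 1 to 2 members were called under vehicle, 2 to 4 under BRICHOS, 2 to 4 in the average and 0 in the other comparisons. Ighm ranged from -0.03 to 0.14 under BRICHOS and from -0.05 to 0.03 in the average, and changed sign without App BRICHOS 2 (-0.03 under BRICHOS) and, in the average, without WT vehicle 3 (0.01), WT BRICHOS 2 (0.00), App vehicle 3 (0.01) or App BRICHOS 3 (0.03).

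Equally numbered libraries deviated together (correlation above 0.1) in 9 of 18 pairs, and 15 of 18 correlations were positive. Against the libraries of each other group, the equally numbered one was the most correlated in 24 of 36 cases. As not every pair was above 0.1, the main fit was kept without a replicate block. This choice does not show that equally numbered libraries share only a number, and what they may share was not tested. With the replicate block, 2, 3 plus Pax5 (4) and 4 members were called under vehicle, under BRICHOS and in the average, and 0 in the treatment comparisons and the interaction. Pax5 was then -2.48 under BRICHOS (adjusted p = 0.0353) and -1.99 in the average (0.0279). Its value in the average was -1.96 (adjusted p = 0.0688) and moved to -1.02 (0.461) without WT vehicle 2. In the average it also passed with library size alone (-2.18) and without WT vehicle 3 (-2.22) or App vehicle 2 (-3.76). Few reads limit Cd79a, Ms4a1, Pax5 and Jchain. Leaving out the light chains moved the Ighm share by at most 1.63 percentage points on group average.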
